A study of Mus musculus with 15 samples.

Results

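Transcripts of motile cilia and of the oviduct epithelium were followed in ovarian RNA of 7 HSD17B1-KI and 8 WT female mice. The genes were taken by symbol alone and comprised all axonemal dynein heavy chains (Dnah), intermediate and light intermediate chains (Dnaic and Dnali1), radial spoke heads (Rsph), tektins (Tekt) and sperm-associated antigens (Spag), together with Ovgp1, Foxj1, Pax8 and Sox17. This gave 46 of the 27907 genes in the deposited table. HSD17B1-KI mice were homozygous for a Ser143Ala point mutation in Hsd17b1, introduced in the germ line and therefore present in all cells, and the WT controls came from the same breeding of heterozygous parents. All females were 6 months old and in estrus, each library was made from the ovary RNA of 1 mouse, and the labels name no treatment. A point mutation cannot be read from counts per gene, so the genotype labels were not checked by it. Levels are normalized counts, that is, reads counted on a gene divided by 1 size factor per library, and between 26544745 and 72362981 reads per library were counted on genes.

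A motile cilium is built on a ring of paired microtubules, the axoneme. Outer and inner dynein arms on these microtubules generate the beat, radial spokes and the central apparatus regulate it, and tektins lie inside the microtubule wall. Foxj1 is the transcription factor that drives the programme of motile ciliogenesis. In the female reproductive tract, such cilia are carried by the multiciliated cells of the oviduct, whereas Ovgp1, oviductal glycoprotein 1, is a product of oviduct secretory cells. Pax8 and Sox17 are transcription factors of the oviduct epithelium, and Sox17 is also known from endothelial cells. In whole-ovary RNA, fewer cells of a type and less RNA per cell cannot be told apart.

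Ovgp1 divided the libraries into widely separated levels in both genotypes. In HSD17B1-KI the lowest level was 108, the median 321 and the highest 14962 normalized counts, and in WT they were 110, 11249 and 203321. In ascending order, 7 libraries (HSD17B1-KI 7, WT 6, WT 3, WT 5, HSD17B1-KI 4, HSD17B1-KI 2 and HSD17B1-KI 5) lay between 108 and 321. A gap of 3.70 on the log2 scale followed. Then came HSD17B1-KI 6 at 4185, WT 2 at 9803, WT 7 at 12695, HSD17B1-KI 3 at 14055, WT 4 at 14952 and HSD17B1-KI 1 at 14962. WT 8 at 127890 and WT 1 at 203321 stood apart again, by 3.10 on the log2 scale. The 8 libraries above the first gap were 3 HSD17B1-KI and 5 WT. Because these levels form separate clusters, no correlation of a member with Ovgp1 is given over all 15 libraries.

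Foxj1 split the libraries at another place. Its lowest, median and highest levels were 9.76, 110 and 3877 normalized counts in HSD17B1-KI and 4.40, 850 and 9884 in WT. HSD17B1-KI 1 (3877), HSD17B1-KI 3 (2361), WT 1 (9884), WT 2 (1721), WT 7 (1583) and WT 8 (9230) were high, and the remaining 9 libraries lay at 176 or below, 3.16 lower on the log2 scale. HSD17B1-KI 6, with 176, and WT 4, with 118, therefore carried the high Ovgp1 of the upper libraries but little Foxj1. The ratio of Ovgp1 to Foxj1 was 127 in WT 4 and 23.75 in HSD17B1-KI 6, against 3.86 to 20.6 in the 6 libraries with high Foxj1. By this ratio HSD17B1-KI 6 was close to WT 1, which had 20.6. In the 7 libraries with low Ovgp1 the ratio ran from 2.92 (HSD17B1-KI 5) to 37.75 (WT 3, with 4.40 normalized counts of Foxj1).

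Pax8 was placed with Ovgp1 rather than with Foxj1 in these 2 libraries. It was 134 in HSD17B1-KI 6 and 331 in WT 4. HSD17B1-KI 1, HSD17B1-KI 3, WT 2 and WT 7 had between 95.1 and 253, WT 8 had 1870 and WT 1 had 2293. In the 8 libraries with high Ovgp1, Pax8 amounted to between 0.749% and 3.21% of Ovgp1. HSD17B1-KI 5, which belonged to the 7 libraries with low Ovgp1, had 110 normalized counts of Pax8, more than WT 7. Sox17 had a floor that Ovgp1, Foxj1 and Pax8 lacked. It lay between 664 and 922 in all HSD17B1-KI libraries and between 676 and 868 in 5 of the WT libraries, with WT 4 at 1111, WT 8 at 2354 and WT 1 at 3389 above them.

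**Figure D1:**
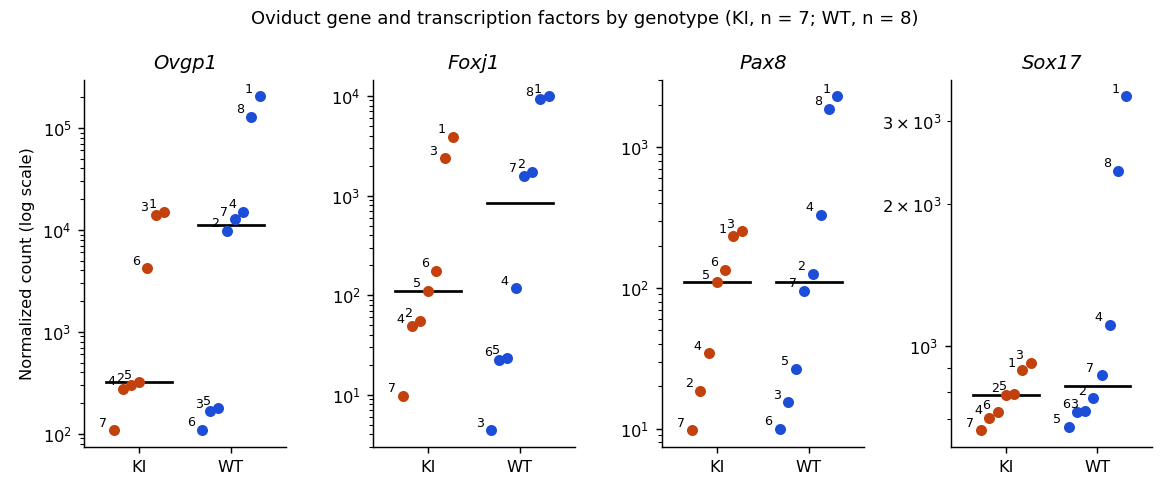
Normalized counts (log scale) of Ovgp1, Foxj1, Pax8 and Sox17 in each library, with 1 point per mouse labelled by its replicate number, HSD17B1-KI (KI) on the left and WT on the right, and a line at the median. Both genotypes span low and high levels, WT 1 and WT 8 are highest for all 4 genes, and WT 4 is high for Ovgp1 (14952) but low for Foxj1 (118).

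**Figure D2:**
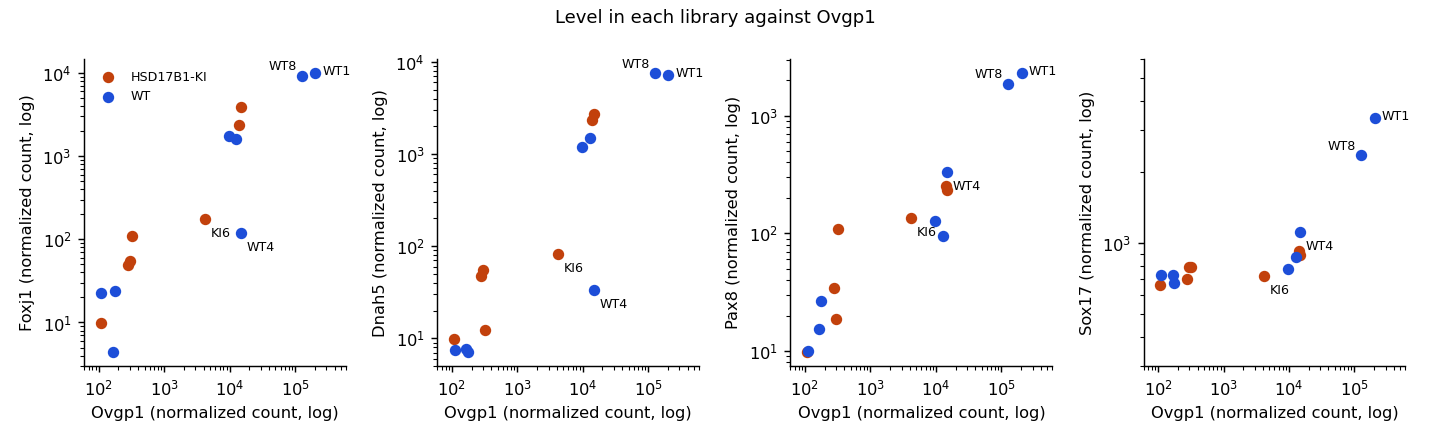
Level of Foxj1, Dnah5, Pax8 and Sox17 in each of the 15 libraries against Ovgp1, as normalized counts with both axes on log scales. HSD17B1-KI 6 (KI6) and WT 4 fall below the other libraries with high Ovgp1 for Foxj1 and Dnah5, whereas for Pax8 they lie among them.

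Which members follow Ovgp1 was asked with limma-trend, fitting log2(normalized count + 1) of each gene on log2(Ovgp1 + 1) with genotype as a second term, over the 21524 genes that averaged 2 or more normalized counts. The slope is the change in log2 units per log2 unit of Ovgp1, so that a slope of 1 is proportional to Ovgp1. p-values were adjusted over all these genes with the Benjamini-Hochberg method, at a threshold of 0.05. Of the 43 members tested beside Ovgp1 itself, 32 had a positive slope that passed and none a negative one, whereas 7.97% of all genes passed in the positive direction, 2.93% in the negative and 10.9% in either. Over all genes 1715 slopes passed above 0 and 630 below, and after quantile normalization 1493 and 1729. The median slope was 0.37 over the members and 0.000845 over all genes. Among the transcription factors the slope was 0.92 (SE 0.09) for Foxj1, 0.62 (SE 0.06) for Pax8 and 0.13 (SE 0.03) for Sox17, all of which passed. The slope of Sox17 no longer passed without WT 1 and WT 8, within HSD17B1-KI alone or with the replicate number as a block. That of Pax8 did not pass within HSD17B1-KI alone. The remaining 2 of the 46 members, Rsph6a and Spag11b, stayed under the minimum and reached at most 12.2 normalized counts in a library. Because the levels of Ovgp1 are clustered, these slopes rest largely on differences between clusters. Without WT 1 and WT 8, 21 of the members passed, where 609 positive and 56 negative slopes of 21341 genes did. Within HSD17B1-KI alone 12 members passed, where 210 positive slopes and 1 negative slope of 21316 genes did.

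**Figure D3:**
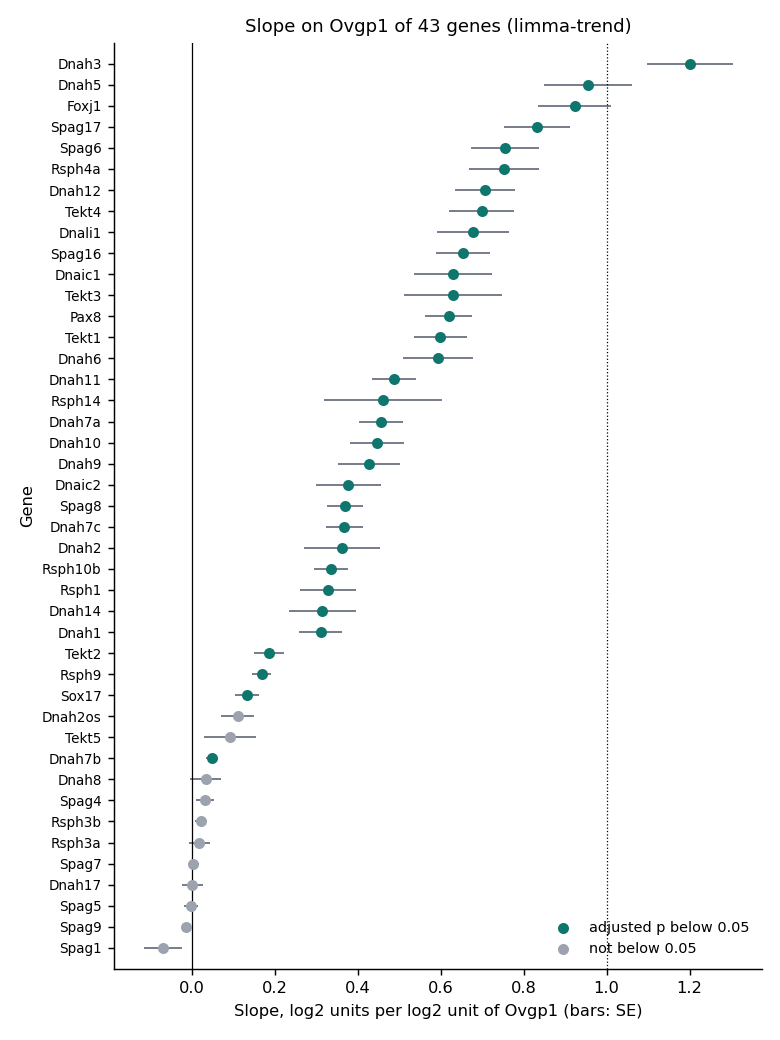
Slope on Ovgp1 of 43 members (points, limma-trend with genotype as a term, bars are standard errors), in log2 units per log2 unit of Ovgp1. Green points passed an adjusted p of 0.05 and grey points did not, the dotted line marks proportionality, and slopes run from -0.07 for Spag1 to 1.20 for Dnah3.

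All 10 inner arm dynein heavy chains passed, with slopes of 0.05 to 1.20. Dnah3 had the largest slope of the whole set, 1.20 (SE 0.10, limma-trend adjusted p = 2.42e-06). It was listed at 0 in HSD17B1-KI 7, WT 3, WT 5 and WT 6, did not exceed 53.6 in the other libraries with low Foxj1, and ran from 906 to 5305 in the 6 libraries with high Foxj1. Dnah12 (slope 0.71, SE 0.07), Dnah6 (0.59, SE 0.08) and Dnah10 (0.45, SE 0.07) likewise had all 6 of these libraries above all others. Dnah2 and Dnah7b passed the test with another pattern, given further on. Dnah14 passed with few reads, since only WT 1 (33.9) and WT 8 (24.8) exceeded 3.56 normalized counts.

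Among the 5 outer arm heavy chains, Dnah5, Dnah9 and Dnah11 passed and Dnah8 and Dnah17 did not. Dnah5 had a slope of 0.95 (SE 0.11, limma-trend adjusted p = 2.1e-05). The lowest, median and highest levels of Dnah5 were 9.76, 54.9 and 2724 in HSD17B1-KI and 7.08, 619 and 7521 in WT, and the 6 libraries with high Foxj1 started at 1204, against 82.1 at most in the others. Dnah9 (slope 0.43, SE 0.07) and Dnah11 (0.49, SE 0.05) rose less steeply from floors of 95.2 and 39.6. The intermediate chains Dnaic1 (0.63, SE 0.09) and Dnaic2 (0.38, SE 0.08) and the light intermediate chain Dnali1 (0.68, SE 0.09) all passed.

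**Figure D4:**
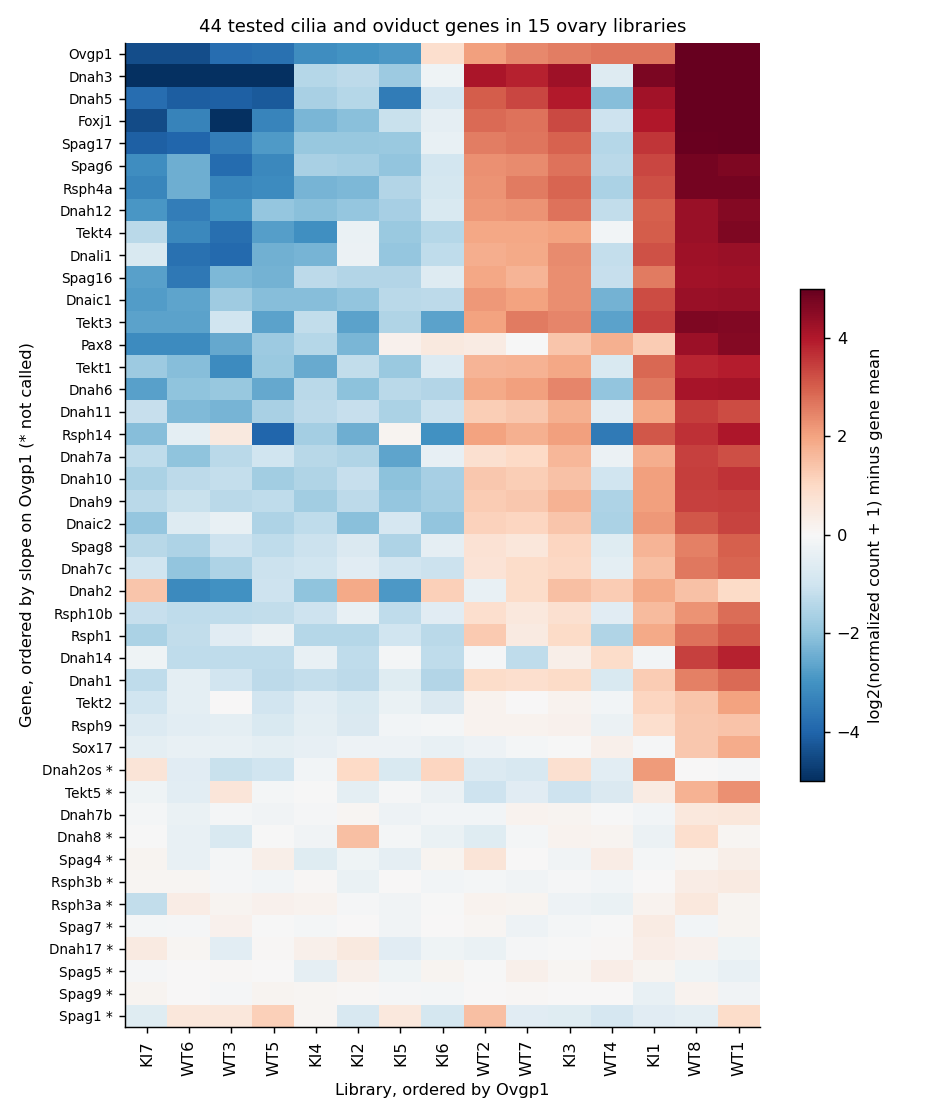
log2(normalized count + 1) of the 44 tested members minus the mean of each gene over the 15 libraries (red above, blue below, colours end at 5 log2 units), with libraries from the lowest to the highest Ovgp1 and genes from the highest to the lowest slope on Ovgp1. Asterisks mark the 11 members without a passing slope, and in the upper rows WT 4 and HSD17B1-KI 6 (KI6) are paler or bluer than their neighbours.

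Of the 7 radial spoke genes tested, Rsph4a (slope 0.75, SE 0.08), Rsph14, Rsph10b, Rsph1 and Rsph9 passed, and Rsph3a and Rsph3b did not. Rsph4a, a spoke head protein of motile cilia, ran from 8.68 to 50.003 normalized counts in the 9 libraries with low Foxj1 and from 439 to 2591 in the other 6. Rsph9 passed with a small slope of 0.17 (SE 0.02) and kept a floor of 164. Rsph14 was the weakest call of the spokes, with an adjusted p of 0.049 from limma-trend, and passed in 10 of 29 alternative settings. Of the tektins, Tekt1 to Tekt4 passed and Tekt5 did not. Tekt4 had a slope of 0.70 (SE 0.08) and ran from 2.2 to 38.5 in the libraries with low Foxj1 and from 166 to 1110 in those with high Foxj1.

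The symbol Spag covers proteins of unlike function, and they did not behave alike. Spag6, Spag16 and Spag17, which belong to the central apparatus, all passed, with slopes of 0.76 (SE 0.08), 0.65 (SE 0.07) and 0.83 (SE 0.08). Spag17 was at 26.2 or below in the 9 libraries with low Foxj1 and between 206 and 1154 in the others. The gene listed as Spag6 carries the identifier of Spag6l on chromosome 16 (16753016 to 16829456, reverse strand, GENCODE M21), and its transcripts shared 0.391% of their 50-base stretches with those of the Spag6 gene on chromosome 2. Among the 6 other Spag genes tested, Spag8 alone passed (0.37, SE 0.04).

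Most cilia genes divided the libraries where Foxj1 did. For 27 tested members, all 6 libraries with high Foxj1 were above all 9 others, a pattern met by 2.63% of all genes tested. For 11 members, Ovgp1 included, all 8 libraries with high Ovgp1 were above the other 7, which held for 1.21% of all genes, and 10 members met both. Since the members that meet the first pattern include Foxj1, which defined it, and those that meet the second include Ovgp1, these counts are descriptions. Of the 32 members with a passing slope, WT 4 lay within the range of the 7 libraries with low Ovgp1 for 16 and above it for 16. HSD17B1-KI 6 lay within that range for 16, above it for 15 and below it for 1, Dnah1, at 102. The places of these 2 libraries were not counted over all genes, so these counts too are descriptions.

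Among the 6 libraries in which Foxj1 was high, the proportion of the cilia transcripts to Foxj1 varied little for some members and much for others. Of 28 cilia members with a passing slope and a value above 0 in these libraries, 23 spanned less than 2 times, with a median span of 1.51. Dnali1 had the smallest, standing between 0.26 and 0.30 normalized counts per count of Foxj1, a span of 1.14 times. Dnaic1 (1.23), Spag6 (1.28), Spag17 (1.32) and Tekt1 (1.37) came next. The 5 members at 2 times or more were Rsph10b (2.00), Tekt2 (2.32), Rsph9 (2.63), Dnah7b (4.74) and Dnah2 (6.22). Ovgp1 per count of Foxj1 spanned 5.33 times over the same libraries, and Pax8 3.87 times. Within the 8 libraries with high Ovgp1, the correlation of log2 levels with Ovgp1 was r = 0.94 for Pax8 and 0.98 for Sox17 but 0.75 for Dnah12 and 0.72 for Spag17. With Foxj1 the values were 0.58, 0.61, 1.00 and 1.00 in the same order. The r with Ovgp1 span the gap of 3.10 on the log2 scale below WT 8 and WT 1. By rank the differences were smaller for Ovgp1, with a Spearman rho of 0.83, 0.93, 0.76 and 0.76 in that order. With Foxj1 rho was 0.55, 0.60, 0.98 and 0.98. For 25 of the 29 cilia members with a passing slope r was higher with Foxj1 and for 4 with Ovgp1. These 4 were Dnah14 (0.95 with Ovgp1 and 0.59 with Foxj1), Dnah7b (0.92 and 0.67), Tekt2 (0.91 and 0.87) and Dnah2 (0.15 and 0.07). These correlations describe 8 libraries that share their size factors and were not tested. HSD17B1-KI 6 and WT 4, which separate Ovgp1 from Foxj1, are among the 8. Neither the spans nor the comparisons of r were counted over all genes, so these counts are descriptions of the members.

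When log2 Ovgp1 and log2 Foxj1 were put in 1 model with genotype, a fit chosen after the data had been seen, 8 of 42 members passed on Foxj1 and none on Ovgp1. The 8 were Dnah3, Dnah6, Dnah12, Dnaic1, Rsph4a, Spag6, Spag17 and Tekt1, with slopes on Foxj1 between 0.58 for Tekt1 (SE 0.12) and 0.97 for Dnah3 (SE 0.18). Of all genes, 0.395% passed on Foxj1 and 0.0929% on Ovgp1. On Ovgp1, 3 members had an unadjusted p under 0.05, Pax8, Dnah2 and, with a negative slope, Spag1. The lowest adjusted p was 0.284, for Pax8 (slope 0.65, SE 0.17, limma-trend). This division rested on WT 4 and less on HSD17B1-KI 6, the 2 libraries that separate Ovgp1 from Foxj1. Without HSD17B1-KI 6, 3 members passed on Foxj1, where 34 of 21554 genes did. Without WT 4, or without both libraries, no member passed on Foxj1, and neither did any other gene tested. With Foxj1 alone in place of Ovgp1, 29 members passed, Ovgp1 included, against 6.79% of all genes, and Dnah2, Dnah14 and Dnah7b no longer did.

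Dnah7a, Dnah7b and Dnah7c, inner arm genes on chromosome 1, differed in their floor. Dnah7a lay between 6.10 and 34.9 in the 9 libraries with low Foxj1 and between 75.7 and 471 in the others. Dnah7c lay between 62.5 and 178 and between 399 and 1879. Dnah7b had 988 to 1303 in the former and 1105 to 1821 in the latter, so that the ranges overlapped, and its slope of 0.05 (SE 0.01, limma-trend adjusted p = 0.030) no longer passed without any 1 of WT 1, WT 8, WT 5, WT 6 or HSD17B1-KI 3. The transcripts of Dnah7a shared 29.4% of their 50-base stretches with Dnah7b and 29.1% with Dnah7c, so that the authors' counting may have split reads between the copies. Their start regions are shown to set these copies side by side, with Tekt1 as a tektin with a passing slope, Dnah5, the member with the second largest slope, and Ovgp1 itself. Each is the RefSeq window on GRCm38.p6 from 250 bases before to 50 bases after the annotated start, written 5′ to 3′ on the strand of the gene. Capitals mark the letters GTTGCC, part of the X-box bound by RFX factors, and the inverted repeat GTTGCNNNGCAAC, on either strand. The windows are chr1:53706735-53707034 (reverse strand), chr1:46066603-46066902 (forward), chr1:46425268-46425567 (forward), chr11:72361833-72362132 (reverse), chr15:28203516-28203815 (forward) and chr3:105973552-105973851 (forward).
Dnah7a: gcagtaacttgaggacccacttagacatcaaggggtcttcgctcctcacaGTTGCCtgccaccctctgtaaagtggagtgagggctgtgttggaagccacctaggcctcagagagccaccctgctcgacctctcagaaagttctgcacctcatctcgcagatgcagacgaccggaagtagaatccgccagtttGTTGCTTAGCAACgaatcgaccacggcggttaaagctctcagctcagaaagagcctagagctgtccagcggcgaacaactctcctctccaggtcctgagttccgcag
Dnah7b: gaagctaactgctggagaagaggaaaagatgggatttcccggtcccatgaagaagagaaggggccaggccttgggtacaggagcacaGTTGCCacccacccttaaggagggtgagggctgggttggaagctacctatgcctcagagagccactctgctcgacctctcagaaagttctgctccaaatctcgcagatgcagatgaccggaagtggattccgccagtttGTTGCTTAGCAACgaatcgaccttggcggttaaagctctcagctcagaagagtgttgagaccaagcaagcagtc
Dnah7c: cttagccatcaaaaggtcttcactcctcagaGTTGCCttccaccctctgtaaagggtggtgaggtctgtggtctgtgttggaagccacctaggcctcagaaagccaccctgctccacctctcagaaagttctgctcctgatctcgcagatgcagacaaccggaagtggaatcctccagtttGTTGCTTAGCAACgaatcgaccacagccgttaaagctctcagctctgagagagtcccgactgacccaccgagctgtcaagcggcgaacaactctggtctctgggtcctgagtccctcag
Tekt1: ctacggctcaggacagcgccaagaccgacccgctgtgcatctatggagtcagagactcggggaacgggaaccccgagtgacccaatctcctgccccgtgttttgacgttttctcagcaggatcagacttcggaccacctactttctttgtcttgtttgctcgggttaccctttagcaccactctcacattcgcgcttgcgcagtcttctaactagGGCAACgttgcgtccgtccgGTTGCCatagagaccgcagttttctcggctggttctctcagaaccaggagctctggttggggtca
Dnah5: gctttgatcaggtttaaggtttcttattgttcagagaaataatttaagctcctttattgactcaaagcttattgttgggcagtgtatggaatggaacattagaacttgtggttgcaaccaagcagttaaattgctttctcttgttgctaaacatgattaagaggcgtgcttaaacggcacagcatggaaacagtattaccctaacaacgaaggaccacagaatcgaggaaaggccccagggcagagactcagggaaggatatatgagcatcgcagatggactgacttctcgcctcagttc
Ovgp1: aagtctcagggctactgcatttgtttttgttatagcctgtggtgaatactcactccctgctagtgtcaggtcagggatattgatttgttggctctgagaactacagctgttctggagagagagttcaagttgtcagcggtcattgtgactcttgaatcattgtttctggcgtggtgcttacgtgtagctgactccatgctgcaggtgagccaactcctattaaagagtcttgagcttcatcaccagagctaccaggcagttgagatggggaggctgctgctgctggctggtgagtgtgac

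The Dnah7a, Dnah7b and Dnah7c windows each hold 1 copy of GTTGCC and 1 of the inverted repeat, in the same order, and the repeat begins 57, 24 and 69 bases before the annotated start, respectively. Aligned end to end, Dnah7a and Dnah7c were 79.6% identical, Dnah7a and Dnah7b 67.4%, and Dnah7b and Dnah7c 60.1%. The Tekt1 window shown holds 2 copies of GTTGCC on opposite strands, and the windows of Dnah5 and Ovgp1 hold neither. The table gives a second start for Tekt1, and its window holds no copy. A gene was counted below as holding a motif when any of its windows did, and Rsph14, Spag9, Tekt1 and Tekt2 had more than 1. Windows were found for 37 of the 46 members, and Foxj1 and Dnah3 were not among them. GTTGCC was present in 11 of 26 members with a passing slope (42.3%), in 1 of 9 without, and in 14.1% of 27025 symbols in the table. GTTGCNNNGCAAC, chosen after the sequences had been seen, was present in 7 of the 26 (Dnah7a, Dnah7b, Dnah7c, Dnah6, Dnaic2, Tekt2 and Tekt4) and in 1 of the 9 (Rsph3b), and in 0.252% of all symbols. Both motifs were searched on both strands and can share bases. TGTTTAC, a forkhead core, was present in 1 of the 26 (Tekt3), in 1 of the 9 (Dnah17) and in 4.05% of symbols. A match is a string of letters in this window and not a measured binding site.

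The 11 members without a passing slope on Ovgp1 were Spag9, Spag7, Spag1, Spag5, Rsph3a, Rsph3b, Dnah8, Spag4, Dnah2os, Dnah17 and Tekt5, with limma-trend adjusted p-values of 0.092 to 0.99. They included proteins used outside cilia. Spag9, the most abundant of the 11 and a scaffold of JNK signalling, averaged 9154 ± 1038 in HSD17B1-KI (normalized counts, SD, n = 7) and 9466 ± 704 among WT mice (SD, n = 8), and its lowest and highest libraries were 7108 and 10530. Spag7 lay between 2163 and 3398. Spag5, which encodes the mitotic spindle protein astrin, lay between 984 and 1713. Per kilobase of exon, the mean of Spag7 was 1748 normalized counts and that of Spag9 832, above the mean of Foxj1 at 743 and below that of Ovgp1 at 7551. Tekt5 stayed between 3.23 and 12.1 in 13 libraries and reached 27.7 in WT 8 and 40.7 in WT 1, the same 2 libraries in which Ovgp1 was highest.

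Rsph3a and Rsph3b, which encode the same kind of spoke protein, had no passing slope on Ovgp1. Rsph3a lay between 292 (HSD17B1-KI 7) and 979 (WT 8), and Rsph3b between 516 and 883. Their transcripts shared 54.4% of the 50-base stretches of Rsph3a, so that reads may have been split between them. Dnah17 lay between 48.8 and 102 and Spag4 between 77.3 and 188. Dnah8 lay between 195 and 591 apart from HSD17B1-KI 2, with 957. For none of these 5 genes did the 6 libraries with high Foxj1 stand above all others, although WT 1 and WT 8 were the highest for Rsph3b. Within the 8 libraries with high Ovgp1, r with Ovgp1 was 0.94 for Rsph3b (Spearman rho = 0.74) and 0.48 for Rsph3a (rho = 0.26). Within the 7 with low Ovgp1, r was -0.49 for Rsph3b and 0.27 for Rsph3a.

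Dnah2 passed the slope on Ovgp1 (0.36, SE 0.09, limma-trend adjusted p = 0.018) but ordered the libraries differently. HSD17B1-KI 4 (299.8), HSD17B1-KI 5 (166), WT 3 (149.6) and WT 6 (135) were lowest, WT 5 (598) and WT 2 (944) followed, and the other 9 libraries lay between 2337 and 4549. HSD17B1-KI 2 and HSD17B1-KI 7, with 4549 and 3208, had low Ovgp1 and low Foxj1. Across the 15 libraries Dnah2 ran with Cyp17a1 (Pearson r = 0.95, Spearman rho = 0.94 on log2 levels, given as a description), the androgen-producing lyase of theca cells, which ranged from 107 to 56551. The libraries lowest in both were the same 4. Cyp17a1 was at 254 or below in these 4 and at 2033 or above in the others, so r over the 15 libraries spans a gap. By the rule of highest r over the 15 libraries, the genes most like Dnah2 were Mid1ip1 (0.97), Sftpc (0.96), Cyp17a1, Agbl5 (0.95), Ptprt (0.95) and 4930581F22Rik (0.95). Within the 8 libraries with high Ovgp1, which hold none of the 4 lowest, their r was between 0.58 (Agbl5) and 0.88 (Mid1ip1), with 0.86 for Cyp17a1. Within the 7 with low Ovgp1 it was between 0.94 (Sftpc) and 0.98 (Mid1ip1). The slope of Dnah2 on Ovgp1 passed in 22 of 29 alternatives. It was lost without WT 3, without WT 6, without WT 1 and WT 8, within HSD17B1-KI alone, without the genotype term, with the replicate number as a block and in edgeR.

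Dnah2os is an antisense transcript inside Dnah2 (chromosome 11, 69448548 to 69453676, forward strand) and matched by symbol only. Of its exon bases 312, or 36.3%, overlap exons of Dnah2, and a strand setting of the read counter is not given in the sources used here, so that reads of the pair may be mixed. Dnah2os ranged from 42.7 (HSD17B1-KI 5) through a median of 128 to 329 (HSD17B1-KI 1) in HSD17B1-KI, and from 33.0 through 47.3 to 75.4 in WT. HSD17B1-KI 4 and HSD17B1-KI 5 lay within the WT range and the other 5 HSD17B1-KI libraries above it. HSD17B1-KI 4 and HSD17B1-KI 5 were also the HSD17B1-KI libraries lowest in Cyp17a1, with 224 and 254. Over the 15 libraries, log2 levels of Dnah2os rose with those of Dnah2 (Pearson r = 0.68, Spearman rho = 0.80). With Cyp17a1 the values were r = 0.68 and rho = 0.78, given as descriptions. The ratio of Dnah2 to Dnah2os ran from 2.77 in WT 6 to 56.9 in WT 4, so that the 2 transcripts did not keep a fixed proportion.

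Spag1, a factor needed for the assembly of dynein arms in the cytoplasm, had its own order. WT 2 (4168), WT 5 (3438), WT 1 (2804), WT 6 (2234), WT 3 (2209), HSD17B1-KI 5 (2130) and HSD17B1-KI 4 (1587) were high, and the other 8 libraries lay between 806 and 1056. The low libraries of Spag1 were the 8 with the highest Cyp17a1, and the correlation of Spag1 with Cyp17a1 was r = -0.65 (rho = -0.68) and with Dnah2 r = -0.64 (rho = -0.63). Its most like genes were Scx (r = 0.98), Adra1d (0.98), Bhmt (0.97), Parvb (0.97), Endod1 (0.97) and Lrrn1 (0.96), each high in the same 7 libraries.

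**Figure D5:**
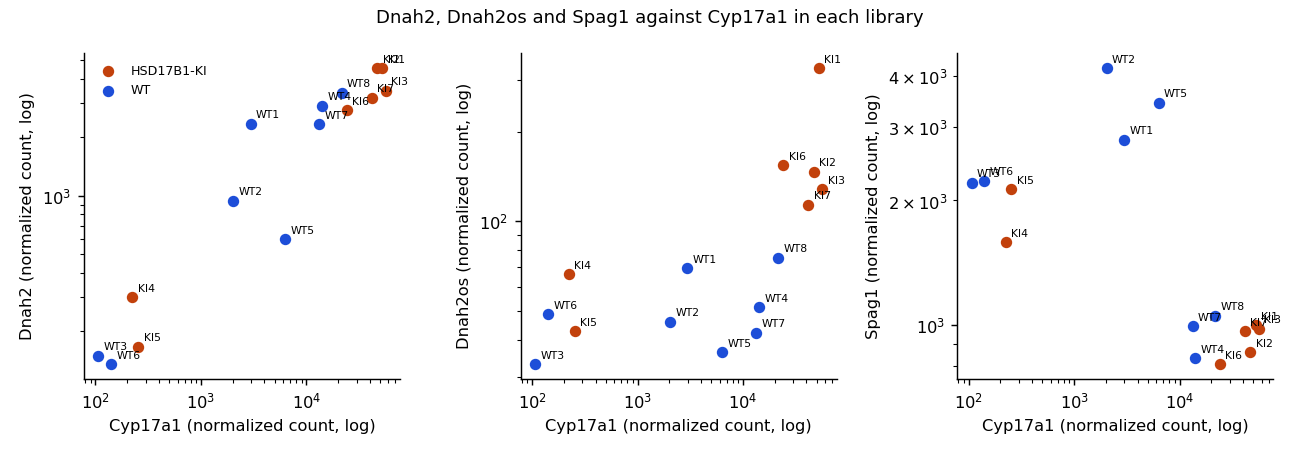
Dnah2, Dnah2os and Spag1 against Cyp17a1 in each of the 15 libraries, as normalized counts with both axes on log scales and labels giving genotype and replicate. Dnah2 is lowest in KI4, KI5, WT3 and WT6, where Cyp17a1 is also lowest, while Spag1 is at 1056 or below in the 8 libraries with the highest Cyp17a1.

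Between the genotypes, none of the 44 tested members was DE with limma-trend (genotype as the only term, adjusted over 21525 genes), where 0.214% of all genes were. Of the members 2 had an unadjusted p under 0.05, Dnah2os and Spag1. Dnah2os averaged 140 ± 92.7 in HSD17B1-KI (normalized counts, SD, n = 7) and 50.3 ± 15.1 among WT mice (SD, n = 8), which gave a log2 fold change of 1.26 (SE 0.34, limma-trend adjusted p = 0.158; exact permutation test, two-sided, p = 0.00497). DESeq2 on the recovered reads called Dnah2os alone among the members (adjusted p = 0.00324, against 0.00324 to 0.366 over the alternatives), with 2.29% of all genes DE, and edgeR called none. Without HSD17B1-KI 5, limma-trend also called Dnah2os. Spag1 had 1191 ± 487 in HSD17B1-KI and 2217 ± 1219 in WT, a log2 fold change of -0.76 (SE 0.35, limma-trend adjusted p = 0.480). Over the members, 39 log2 fold changes were below 0 and 5 above, with a median of -0.75 (-1.32 in both edgeR and DESeq2), against a median of -0.02 over all genes. High Foxj1 was found in 4 of 8 WT and 2 of 7 HSD17B1-KI libraries, and the libraries with the highest levels, WT 1 and WT 8, were both WT. Without these 2 the median was 0.18, on the other side of 0.

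The mean of Ovgp1 was 4887 ± 6733 in HSD17B1-KI (normalized counts, SD, n = 7) and 46139 ± 76668 among WT mice (SD, n = 8). Its log2 fold change of -1.96 (SE 1.77) did not pass (adjusted p = 0.762 with limma-trend, and p = 0.329 in the exact permutation test). Foxj1 had a log2 fold change of -0.82 (SE 1.75), Pax8 of -0.95 (SE 1.16) and Sox17 of -0.50 (SE 0.31), none of which passed. On the recovered reads, whose fits compare means of counts rather than of logarithms, the log2 fold change of Ovgp1 was -3.24 in edgeR (adjusted p = 0.445, unadjusted 0.0576) and also -3.24 in DESeq2 (adjusted p = 0.204, unadjusted 0.0141). In edgeR it was -1.57 for Foxj1, -2.39 for Pax8 and -0.76 for Sox17, and neither tool called any of the 4 genes. Without WT 1 and WT 8 the values of Foxj1 and Pax8 turned positive, to 0.82 and 0.38, and that of Ovgp1 was -0.24. No member had genotypes that did not overlap, which held for 0.325% of all genes. The slope on Ovgp1 did not differ detectably between the genotypes for any member. The interaction of genotype and Ovgp1 was called for none of the members and 0.0% of all genes, 2 members had an unadjusted p under 0.05, and the lowest adjusted p of a member was 0.998 (limma-trend).

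Other genes of motile cilia behaved like the members. Of 73 further cilia genes listed from knowledge of the axoneme, its assembly and its regulators, 68 had a positive slope on Ovgp1 that passed, against 7.97% of all genes. Their median slope was 0.41 over the 73. For 59, all 6 libraries with high Foxj1 were above the others, against 2.63% of all genes. Cfap65, a cilia- and flagella-associated protein, was at 64.7 or below in the 9 libraries with low Foxj1 and between 1333 and 9054 in the others (slope 1.09, SE 0.11). Hydin, a protein of the central apparatus, ran from 7.70 to 47.6 and from 735 to 3919. Tppp3, the most abundant of the 73, did not separate these libraries. It had 359 to 1758 in the 9 libraries with low Foxj1 and 1635 to 7218 in the others (slope 0.36, SE 0.04). The 5 that did not pass were Dnaaf2, Ccno, Rfx3, Ropn1l and Mlf1. Mlf1 had 904 to 3352 normalized counts, and Rfx3, an RFX factor, 704 to 1527. None of the 73 genes was DE between the genotypes, where 0.214% of all genes were.

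Among 20 genes of oviduct secretory cells and general epithelium, 16 had a passing positive slope, with a median of 0.21, where 7.97% of all genes had one. Cldn4, Muc16, Hoxa9 and Msx2 did not pass. Krt8 had a slope of 0.15 (SE 0.03) and ran from 1728 in HSD17B1-KI 7 to 8635 in WT 1. WT 4 exceeded the 7 libraries with low Ovgp1 for 20 of these 20 genes and for 32 of the 73 cilia genes, and HSD17B1-KI 6 exceeded them for 9 of 20 and 31 of 73. The genes outside the members that were most like Ovgp1 over the 15 libraries were Lpar3, Slc23a1, Klk11, Atp13a5, Agr2, Sox3, Tmprss2 and Tmc5 (r = 0.99 to 0.98). These r span the gaps between the clusters of Ovgp1. Within the 8 libraries with high Ovgp1 their r was between 0.88 and 0.98. Within the 7 with low Ovgp1 it was between 0.36 (Klk11) and 0.89 (Lpar3). Slc23a1, a vitamin C transporter, had 316 normalized counts in WT 4 and 84.5 in HSD17B1-KI 6, against 4.88 at most in the 7 libraries with low Ovgp1.

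Markers of neighbouring tissues were put to the same slope test on Ovgp1, which 10.9% of all genes passed in either direction. None of 8 smooth muscle genes, 5 adipose genes or 12 genes of ovarian cells passed, and 1 of 6 surface epithelium genes did, Msln. At that share, lists this short can hold few or no passing genes, so the counts are descriptions. Of the ovarian genes, Star (slope -0.19, limma-trend adjusted p = 0.078) and Cyp11a1 (-0.08, adjusted p = 0.089) came closest to passing, with negative slopes. Acta2, the most abundant smooth muscle marker, lay between 16055 and 29540 in all libraries. The summed level of the 8 smooth muscle genes was 40110 to 84408 in HSD17B1-KI and 47951 to 83237 in WT, and that of the 5 adipose genes 2306 to 9312 and 2478 to 10254. The 12 genes of ovarian cells summed to 410520 to 623032 in HSD17B1-KI and 269629 to 557936 in WT. Most genes of the list of oviduct secretory cells and general epithelium thus rose with Ovgp1, as most members did. That list includes general epithelial genes such as Krt8, which was at 1728 or above in every library. The part of oviduct tissue in the levels of the members was not tested.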

How the data were processed

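Ovary RNA of 7 HSD17B1-KI and 8 WT mice was sequenced with the TruSeq Stranded mRNA kit. According to the submitters' processing notes and the study's methods, reads were demultiplexed with bcl2fastq 2.20, trimmed and aligned to mm10 with STAR 2.7.3. The read counter, its strand setting and its annotation are not given in the sources used here. The authors deposited a table of signal values, counts per gene divided by 1 size factor per library. Whole reads were recovered for 100% of values, within 0.01 of a whole number, and between 26544745 and 72362981 reads per library limit the precision of low genes.

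Members were matched by gene symbol. The members and gene lists were chosen with earlier results of these data known. Genes that averaged 2 or more normalized counts were tested with limma-trend (limma 3.58.1, R 4.3.3) on log2(normalized count + 1), a scale that understates changes of low genes, with Benjamini-Hochberg adjustment over all genes and a threshold of 0.05. Alternatives on the recovered reads were edgeR 4.0.16 (quasi-likelihood, TMM) and DESeq2 1.42.0. Other alternatives changed the pseudocount, the minimum, the scaling, the covariates and the libraries included. Single members were also compared with an exact permutation test over all 6435 splits into 7 and 8. The fits were tested on simulated data. Named genes were Ovgp1, Foxj1, Pax8 and Sox17, members DE between genotypes, the 10 largest passing slopes, members with a mean of at least 10 and no passing slope and the 8 genes most like Ovgp1. The rule also held the 3 most abundant genes of each list, of which only some are named. Genes named beyond this rule were chosen after their values had been seen. Gene positions are from GENCODE M21 and start regions from RefSeq (GRCm38.p6), in which 46 of 46 identifiers and 37 of 46 members, respectively, were found. Shared stretches of 50 bases between transcripts stand in for a comparison of proteins, which was not made.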

Additional observations from a re-analysis of the deposited data

Results flagged for a closer look

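In 4 of 50 groups tested, a member had 1 library far from the others of its genotype by Dixon's criterion, which chance passes in about 1 of 20 groups. Spag7 was at 3398 normalized counts in HSD17B1-KI 1, and the next highest HSD17B1-KI library had 2638. Rsph3a was at 292 in HSD17B1-KI 7, below the next lowest at 566, and at 538 in WT 4, below the next lowest at 755. Dnah8 was at 957 in HSD17B1-KI 2, and the next highest library of that genotype had 378. None of the 3 genes had a passing slope on Ovgp1.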

How the results depend on the processing

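Of the 32 members with a passing slope on Ovgp1, none had a negative slope in any of 29 alternatives and 7 passed in all of them. Leaving out 1 library at a time left 28 to 32. Within HSD17B1-KI alone 12 passed, where 210 positive slopes and 1 negative slope of 21316 genes did. Without WT 1 and WT 8, a choice made after the data had been seen, 21 passed, where 609 positive and 56 negative slopes of 21341 genes did. The labels do not say whether replicate numbers mark paired mice. Libraries of the same number had correlations from -0.55 to 0.55 over the 7 numbers found in both genotypes, which cannot decide it. With a replicate block 13 members passed the slope, where 194 of 21506 genes did. None of the members passed the genotype, and neither did any other gene.

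For the genotype, DESeq2 called 1 member, and leaving out 1 library gave between 0 and 1. The median log2 fold change was -1.15 to -0.27 without single libraries. Foxj1 and Pax8, negative otherwise, were 0.99 and 0.27 with Ovgp1 as a covariate and 0.82 and 0.38 without WT 1 and WT 8. With Foxj1 beside Ovgp1, 3 members passed on Foxj1 without HSD17B1-KI 6, where 34 of 21554 genes did. Without WT 4 and without both, 0 members passed, and no other gene did.

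Slopes near 0 changed sign. With the replicate block they were -0.019 for Spag7, 0.021 for Spag5, -0.00172 for Rsph3a, -0.00692 for Rsph3b, -0.0414 for Dnah17 and -0.0764 for Tekt5. Within WT, Spag7 had -0.00856 and Rsph3a -0.00408. Within HSD17B1-KI, Spag5 had 0.043, Rsph3b -0.0011, Dnah8 -0.064, Dnah17 -0.020 and Tekt5 -0.019. Without WT 1 and WT 8, Spag5 had 0.033, Rsph3b -0.00958, Dnah8 -0.011, Dnah17 -0.00731 and Tekt5 -0.0692. Without the 2 libraries farthest from the median of Ovgp1, Spag7 had -0.00297, Spag5 0.013 and Rsph3a -0.00317. Quantile normalization gave -0.024 for Spag4 and -0.0579 for Dnah17, which was -0.00209 in edgeR, -0.00183 in DESeq2 and -0.00676 without the genotype term. Without single libraries, Spag7 ran from -0.0060 to 0.012, Spag5 from -0.0078 to 0.013, Rsph3a from -0.0035 to 0.030 and Dnah17 from -0.014 to 0.0084. The cause was not tested. Low genes such as Dnah14 and Tekt5 are limited by depth.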
